A study of Homo sapiens with 4 samples.

Results

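The genes described here are the 5 NF-kB subunit genes NFKB1, NFKB2, REL, RELA and RELB, and 5 genes that NF-kB activates and whose products act back on the pathway, the inhibitor genes NFKBIA, NFKBIZ and NFKBIE and the ubiquitin ligase genes TNFAIP3 and BIRC3. They were chosen by name from the 29655 gene names in the count tables, each of the 10 names had 1 entry per table, and all 10 were among the 11906 protein-coding genes tested. The RNA-seq libraries came from UMSCC74B, an established line of head and neck squamous cell carcinoma (HNSCC). In 2 of them wild-type cells had received a control shRNA, and in the other 2 an shRNA against PRMT5 (PRMT5 KD, a knockdown of this arginine methyltransferase), all transfected with plasmid according to the sample labels and kept for 72 h without antibiotic. The paper's methods describe lentiviral transduction for its shRNA work. Neither source says whether the libraries of a group came from separate cultures, so the tests measure the spread between these libraries, which may be technical.

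NF-kB is a family of transcription factors that work as dimers of a Rel homology subunit with another. In resting cells, IkB proteins hold the dimers in the cytoplasm. Signals from TNF, IL-1 and Toll-like receptors activate the IKK kinase complex, which marks the IkB proteins for destruction, and the freed dimers enter the nucleus and bind kappa B sites, among others in the promoters of their own inhibitors and of several of their own subunits. RELA with the NFKB1 product p50 serves this classical branch, and RELB with the NFKB2 product p52 serves the alternative branch, which BIRC3 and its partners keep in check. In squamous carcinomas the pathway is known for inflammatory cytokine output and cell survival.

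Promoter sequences were searched for the letters of kappa B sites. RefSeq windows from 250 bases before to 50 bases after each annotated start (GRCh38.p14) were matched for 8 of the 10 genes, with 13 windows in all because NFKB1, RELA and NFKBIZ have 2 annotated starts each and NFKB2 has 3. RELB and NFKBIE were not matched. The loose kappa B pattern GGGNNNNNCC, searched on both strands, was found in all 13 windows, but it is also in 58.7% of 35116 RefSeq windows and in 71.5% of the windows of genes tested. A stricter kappa B consensus, which in addition limits the fourth base to purines and the seventh and eighth to pyrimidines, was found in 9 of the 13 windows, against 11.3% of all windows and 13.5% of those of genes tested. Counted by gene, 7 of the 8 had it in at least 1 window, against 13.3% of 27305 genes and 17.4% of the 9772 genes tested among them. A gene with more windows has more chances of a match. RELA was the exception, with a loose match in each of its windows. Every stricter match is also a loose match.

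The sites with the stricter match are shown as a description. The genes were named for their part in NF-kB and its feedback, so their share of such sites is not independent of that choice. Each is written 5′ to 3′ on the strand where it reads as the consensus.
NFKB1, 49 to 40 bases before its first start: GGGAATTTCC
NFKB2, 78 to 69 bases before its second start: GGGGCTTTCC
NFKB2, 21 to 12 bases before the third start: GGGACTTTCC
REL, 47 to 38 bases before its start: GGGAAATTCC
NFKBIA, 81 to 72 bases before its start: GGGAATTTCC
NFKBIZ, 223 to 214 bases before its first start: GGGAATTTCC
TNFAIP3, 67 to 58 bases before its start: GGGACTTTCC
TNFAIP3, 55 to 46 bases before its start: GGGGATTTCC
BIRC3, 199 to 190 bases before its start: GGGGATTTCC
BIRC3, 135 to 126 bases before its start: GGGGAACTCC

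NFKB1, NFKBIA and NFKBIZ held the same 10 letters, and TNFAIP3 and BIRC3 shared a site as well. A second REL match overlapped the one shown by all but 1 base. The second NFKB2 window held another overlapping pair, the third window of NFKB2 another match, and the second window of NFKBIZ 1 match. The 250 bases before the start are printed for NFKBIZ, the 1 member called higher below, and for NFKBIA, TNFAIP3 and BIRC3, feedback genes with such sites that were not called. Capitals mark the stricter matches as they read on the strand of the gene.
NFKBIZ, first start, chr3:101827740-101827989, plus strand: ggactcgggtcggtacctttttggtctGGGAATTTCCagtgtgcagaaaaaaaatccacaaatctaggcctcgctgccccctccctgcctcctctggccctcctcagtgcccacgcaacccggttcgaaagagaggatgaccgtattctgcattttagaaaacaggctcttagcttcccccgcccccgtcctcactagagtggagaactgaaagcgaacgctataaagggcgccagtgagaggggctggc
NFKBIA, chr14:35404750-35404999, minus strand: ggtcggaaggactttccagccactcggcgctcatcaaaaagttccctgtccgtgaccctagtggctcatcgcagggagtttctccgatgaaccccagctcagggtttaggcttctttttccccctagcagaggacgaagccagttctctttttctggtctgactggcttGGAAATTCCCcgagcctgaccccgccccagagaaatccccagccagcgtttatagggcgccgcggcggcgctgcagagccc
TNFAIP3, chr6:137867009-137867258, plus strand: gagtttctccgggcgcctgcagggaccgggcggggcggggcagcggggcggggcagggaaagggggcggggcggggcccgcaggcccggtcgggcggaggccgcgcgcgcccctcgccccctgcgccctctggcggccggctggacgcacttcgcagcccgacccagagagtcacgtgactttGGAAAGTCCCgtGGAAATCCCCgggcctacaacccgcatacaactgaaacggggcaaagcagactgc
BIRC3, chr11:102317234-102317483, plus strand: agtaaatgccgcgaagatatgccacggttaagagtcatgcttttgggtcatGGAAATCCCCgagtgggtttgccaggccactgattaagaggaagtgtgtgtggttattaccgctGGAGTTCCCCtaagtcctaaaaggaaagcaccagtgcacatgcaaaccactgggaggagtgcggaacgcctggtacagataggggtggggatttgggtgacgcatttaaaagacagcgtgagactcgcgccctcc

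A match of letters is a description and does not show that a factor binds there. The plot of matches by distance from the start shows where they lie.

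**Figure D1:**
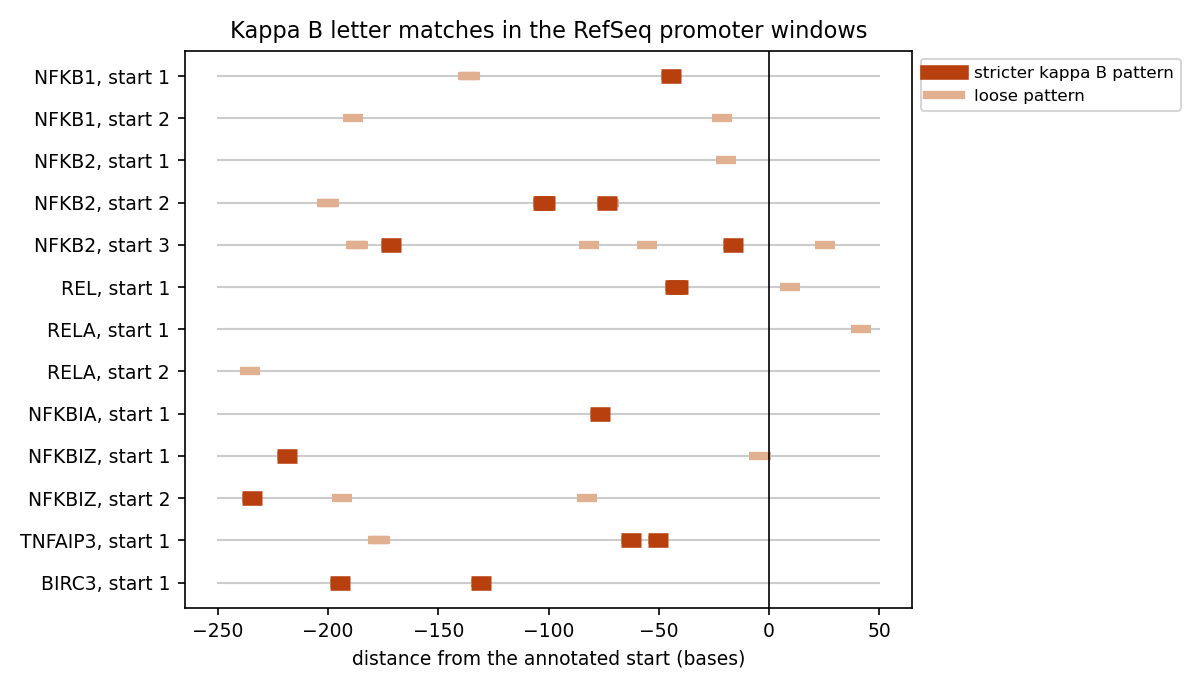
Positions of kappa B letter matches in the 13 RefSeq promoter windows of 8 genes, in bases from the annotated start (line at 0). Dark bars are matches of the stricter consensus and pale bars matches of the loose pattern alone. The dark bars appear in 9 windows, at both sites of TNFAIP3 and BIRC3, and in neither window of RELA.

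The authors deposited estimated counts per gene, which sum to between 52185289 and 65964558 per library. Ribosomal RNA took 15.3% and 14.2% of the counts in control and 26.2% and 18% in PRMT5 KD. Levels are given below as CPM (the usual depth-normalised count, with TMM scaling over the genes tested) and, where genes are compared with each other, as RPKM (the same per kilobase of exon). Differences are log2 fold changes of PRMT5 KD minus control with their standard error (SE), tested with the quasi-likelihood method of edgeR, with p-values adjusted by Benjamini-Hochberg across the 11906 genes (FDR). A gene was called when its FDR was under 0.05 and its absolute log2 fold change at least 0.5. With 2 libraries against 2, the smallest p that a permutation of the libraries can give is 0.333, so no permutation test was used.

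The transcript of the targeted gene was examined in every library. PRMT5 had 94.2 and 84.2 CPM in control, against 132 and 149 CPM under the PRMT5 KD label, a log2 fold change of 0.66 (SE 0.12, FDR = 0.00548). The transcript was thus called higher, not lower, under the knockdown label. Without control replicate 2 the value was 0.58 (FDR = 0.0666) and was not called. The submitters assessed the PRMT5 mRNA by qRT-PCR and the protein by immunoblot, and the paper describes the silencing as checked by immunoblot. The count tables hold neither measure. All directions below are by the labels.

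Markers of the line and of other cell types were also checked. Of the 10 squamous epithelial markers only TP63, DSP and DSG3 were expressed highly enough to be tested, and KRT5, KRT14, KRT6A and CDH1 did not exceed 0.204 RPKM in any library. TP63 (-1.35, FDR = 0.0112) and DSG3 (-0.85, FDR = 0.00907) were called lower, and DSP (0.58, FDR = 0.108) was not called. Of those too low to test, SFN had 0.0579 and 0.0763 RPKM in control and 0.449 and 1.37 RPKM in PRMT5 KD. KRT17 went from 0.0421 and 0.0400 RPKM to 0.371 and 0.495 RPKM, and KRT14 from 0 to 0.102 and 0.204 RPKM. KRT5, KRT6A, CDH1 and EPCAM overlapped between the groups. The markers therefore do not show the keratins that define squamous cells. Fibroblast markers were present, with a summed level over 8 genes of 138 and 154 RPKM in control and 21.6 and 24.9 RPKM in PRMT5 KD, and 7 of the 7 tested were called lower. Among haematopoietic markers, PTPRC and CD3E did not exceed 0.00647 RPKM, while CD14, a receptor for bacterial lipopolysaccharide, had 21.0 and 24.3 RPKM in control and 0.650 and 1.13 in PRMT5 KD. ITGAX, an integrin gene of myeloid cells, had 6.28 and 8.68 RPKM in control and 4.04 and 3.07 in PRMT5 KD, and both it and CD14 were called lower. The endothelial markers summed to at most 1.84 RPKM in any library, and PECAM1, the 1 tested, was called lower (-5.27, FDR = 3.06e-04). The groups thus differ in marker genes far beyond the NF-kB pathway, and the part of this in the results below was not tested. In bulk RNA, fewer cells of a type and less RNA per cell cannot be told apart.

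Under the PRMT5 KD label, NFKBIZ rose 1.85-fold and NFKBIE fell to 0.601 of its control level. Both genes encode IkB family proteins. The other 8 members were not called. That is 1 member called higher, where 21.2% of all genes tested were, and 1 called lower, where 24.3% were. The comparison in the higher direction depended on the processing. With a correction for exon length and GC, 4 of the 10 members were called higher against 24% of all genes, and with the replicate block added 5 against 23.3%. NFKBIE was the member called lower in each of these. Of the 10 members, 8 had fold changes above 0 on the log2 scale, against 5887 of the 11906 genes tested. The median of the 10 members was 0.20, against -0.01 over all genes tested. Scaling by total counts, without TMM, moved the medians to 0.38 for the members and 0.17 for all genes. All 10 members passed the minimum of 0.5 RPKM in all 4 libraries, so no member entered the test through 1 group alone.

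**Figure D2:**
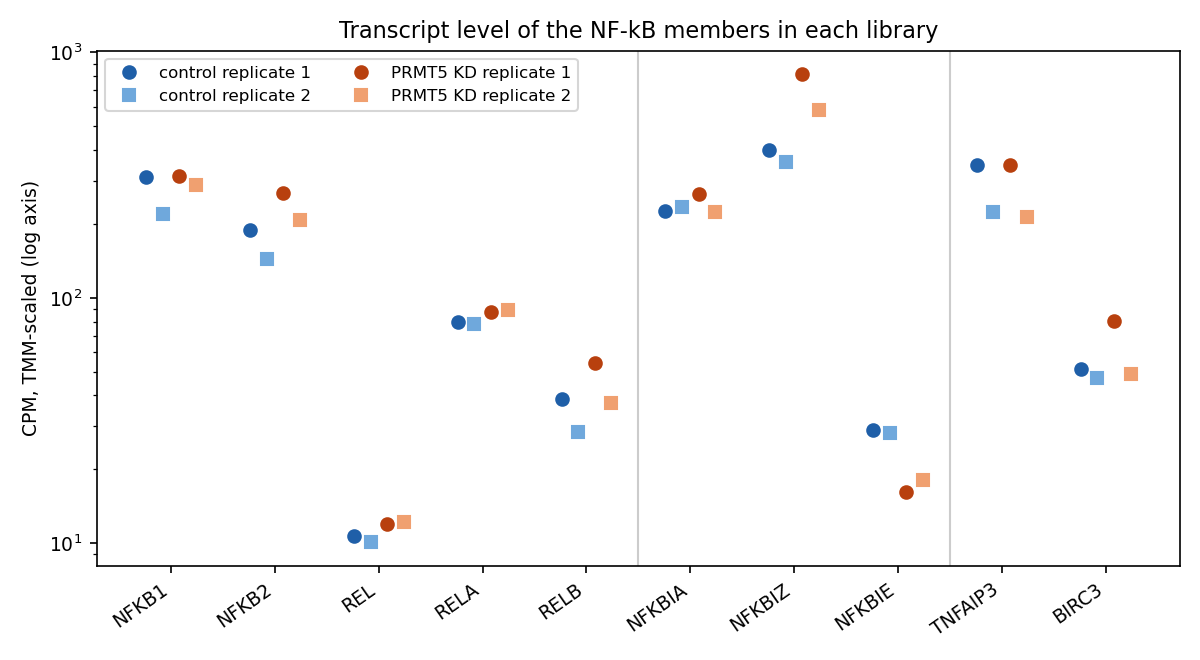
Level of each member in each library, in CPM scaled by TMM on a log axis (control in blue, PRMT5 KD in orange, circles for replicate 1 and squares for replicate 2). Grey lines part the subunit genes, the inhibitor genes and the ubiquitin ligase genes. The PRMT5 KD libraries of NFKBIZ, at 815 and 584 CPM, lie above both control libraries, and those of NFKBIE, at 16.1 and 18.1 CPM, below them.

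None of the 5 subunit genes was called. RELA (chr11:65653599-65663090, minus strand, GRCh38, as for all loci below) encodes p65, the main transactivating subunit. It had 79.5 and 78.5 CPM in control and 87.9 and 89.2 CPM in PRMT5 KD. Both PRMT5 KD libraries lay just above both control libraries, and each pair was close together, with SDs of 0.752 and 0.908 CPM (n = 2 each). This gave a log2 fold change of 0.17 (SE 0.10, FDR = 0.213).

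NFKB1 (chr4:102501330-102617302, plus strand) encodes p105, the precursor of p50, and p105 also acts as an IkB. It had 311 and 219 CPM in control and 314 and 289 CPM in PRMT5 KD. Control replicate 2 was lower than the other 3 libraries, and the groups overlapped. The log2 fold change of 0.18 (SE 0.19, FDR = 0.431) was -0.04 when control replicate 2 was left out.

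NFKB2 (chr10:102394110-102402524, plus strand) encodes p100, the precursor of p52 and an inhibitor of RELB dimers. It had 189 and 144 CPM in control against 266 and 207 CPM in PRMT5 KD, and the groups did not overlap. With a log2 fold change of 0.51 (SE 0.19, FDR = 0.0591) it narrowly missed the FDR threshold and came nearest to a call among the members not called. DESeq2 called it at the same fold change (FDR = 0.0249), and so did the fit with the replicate number as a block (0.51, FDR = 0.0231). Without PRMT5 KD replicate 2 its value was 0.68, with the lone PRMT5 KD library assumed to vary like the control libraries.

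RELB (chr19:45001461-45038192, plus strand), the partner of p52, had 38.8 and 28.4 CPM in control and 54.3 and 37.3 CPM in PRMT5 KD. PRMT5 KD replicate 1 was the highest library, and PRMT5 KD replicate 2 lay between the control libraries. Its log2 fold change was 0.45 (SE 0.23, FDR = 0.159), and it was 0.69 without PRMT5 KD replicate 2, with the lone PRMT5 KD library assumed to vary like the control libraries.

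REL (chr2:60881491-60931612, plus strand) encodes c-Rel, a subunit best known from lymphocytes. It was the least abundant member, with 10.7 and 10.1 CPM in control and 12.0 and 12.2 CPM in PRMT5 KD, from 423 to 586 counts per library. The groups did not overlap, and the log2 fold change was 0.22 (SE 0.14, FDR = 0.230). Its mean of 0.657 RPKM over the 4 libraries lay at the 3.6 percentile of all genes tested, close to the minimum for testing.

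REL and NFKB1 have the longest union of exons of the 10, with 17129 and 15679 bases against a median of 5382 over the genes tested. The canonical transcript is 11108 bases for REL but only 4055 for NFKB1, whose longest transcript has 7040. The correction below used the union length, and a correction by another length was not run. Fold changes in these libraries fell with exon length, from a median of 0.24 in the shortest of 10 length bins to -0.29 in the longest. After correction for these lengths and for GC content, the log2 fold changes were 0.59 for REL (FDR = 0.0132), 0.53 for NFKB1 (FDR = 0.0441) and 0.72 for NFKB2 (FDR = 0.0230), and all 3 were called higher. RELA was at 0.34 at most under any alternative and was never called. For REL, 5702 exon bases are shared with an annotated long noncoding gene on the same strand that has no entry in the tables.

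The inhibitor genes moved in different directions. NFKBIA (chr14:35401079-35404749, minus strand) encodes IkBα, the classical inhibitor of RELA dimers, which NF-kB induces within minutes. It had 225 and 234 CPM in control and 265 and 224 CPM in PRMT5 KD. PRMT5 KD replicate 2 was level with control replicate 1, so the groups overlapped. On the log2 scale the difference was 0.10 (SE 0.13, FDR = 0.559), and the 14 alternatives gave between 0.00 and 0.27 with no call.

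NFKBIZ (chr3:101827991-101861022, plus strand) encodes IkBζ, a nuclear IkB protein that works with p50 as a coactivator of a second wave of inflammatory genes. It had 401 and 357 CPM in control and 815 and 584 CPM in PRMT5 KD. Both PRMT5 KD libraries lay above both control libraries, and they were farther apart than the control libraries. The means were 379 ± 31.7 CPM and 700 ± 164 CPM (SD, n = 2 each). The log2 fold change was 0.88 (SE 0.19, FDR = 0.00930), at the 88.9 percentile of the fold changes of all genes tested. It kept the call under every other test, scaling, filter and correction at the same thresholds, but lost it without control replicate 1 (0.98, FDR = 0.0572) and without control replicate 2 (0.81, FDR = 0.0976), fits in which the lone control library is assumed to vary like the other group. Its exons share 194 bases on the same strand with NXPE3, which had 316 and 334 CPM in control and 151 and 180 CPM in PRMT5 KD and was called lower (-0.97, FDR = 0.00176). How reads in the shared bases were divided between the genes was not tested. NFKBIZ had 15907 to 38833 counts per library.

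NFKBIE (chr6:44258166-44265788, minus strand) encodes IkBε, which holds RELA and REL dimers and is resynthesised more slowly than IkBα. It had 28.9 and 28.0 CPM in control and 16.1 and 18.1 CPM in PRMT5 KD. The pairs were tight and did not overlap, with means of 28.4 ± 0.651 CPM and 17.1 ± 1.35 CPM (SD, n = 2 each). NFKBIE fell by 0.73 on the log2 scale (SE 0.13, FDR = 0.00440). It was called lower under every alternative at the same thresholds, with values between -0.81 and -0.55, including all 4 in which a library was left out. It was the only member of the 10 for which that held. At a threshold of 1 on the log2 scale neither NFKBIZ nor NFKBIE was called.

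The ubiquitin ligase genes overlapped between the groups. TNFAIP3 (chr6:137867214-137883314, plus strand) encodes A20, a ubiquitin-editing enzyme that shuts off signalling from the TNF receptor to IKK. It had 349 and 224 CPM in control and 346 and 213 CPM in PRMT5 KD. The libraries of each group were far apart, and the replicates with the same number were nearly equal between the groups. The log2 fold change was -0.04 (SE 0.31, FDR = 0.932), with the largest SE of the 10. Total counts without TMM, which moved the median of all genes from -0.01 to 0.17, gave 0.13. Leaving out 1 library gave values from -0.40 to 0.32, none of them called.

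BIRC3 (chr11:102317484-102339403, plus strand) encodes cIAP2, which ubiquitinates RIPK1 and, with TRAF proteins, keeps the kinase NIK low. It had 51.4 and 47.2 CPM in control and 80.4 and 49.1 CPM in PRMT5 KD. Only PRMT5 KD replicate 1 stood above the others. The log2 fold change of 0.39 (SE 0.24, FDR = 0.212) was 0.71 without PRMT5 KD replicate 2, and 0.03 without PRMT5 KD replicate 1. In each of these fits the spread comes from the control libraries alone.

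**Figure D3:**
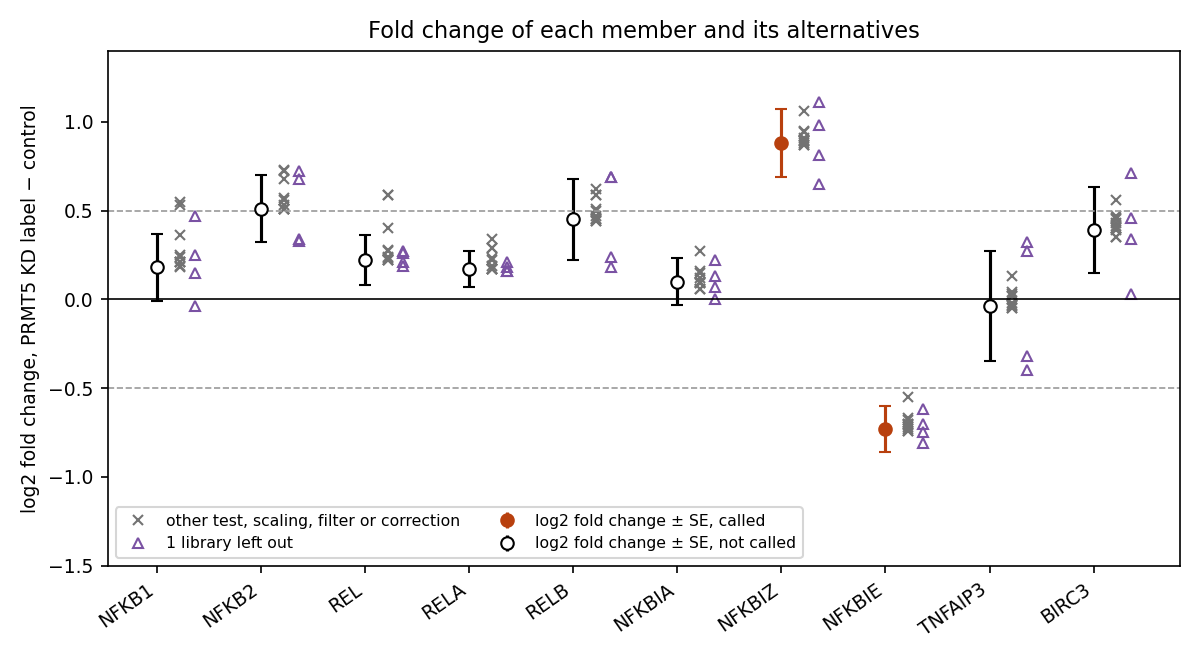
Log2 fold change of each member (PRMT5 KD label minus control), with its SE as error bar and filled where called. Crosses are other tests, scalings, filters and corrections, triangles the 4 fits that each left out 1 library, and dashed lines mark ±0.5. NFKBIE stays below -0.5 throughout, NFKBIZ stays above 0.5, and TNFAIP3 lies near or on both sides of 0.

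The spread within a group was not the same for all members. In 6 of them, NFKB1, NFKB2, RELB, NFKBIZ, TNFAIP3 and BIRC3, replicate 1 was above replicate 2 in both groups. The log2 gap between replicates was largest for TNFAIP3 in control (0.64) and for BIRC3 (0.71) and TNFAIP3 (0.70) in PRMT5 KD. RELA had the smallest gaps, of 0.02 in control and -0.02 in PRMT5 KD. Over the members, replicate 1 was the higher in 9 of 10 in control and in 7 of 10 in PRMT5 KD, where the shares over all genes tested were 47.0% and 49.9%. The labels do not say that libraries with the same number were made together, and the number was used as a block only where a value is given as such.

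Levels were compared between members on the RPKM scale with the union of annotated exons as length. In control, NFKBIA (67.5 ± 1.87 RPKM) and NFKBIZ (64.2 ± 5.36 RPKM) were the most abundant and overlapped, followed by TNFAIP3 at 44.5 ± 13.7 RPKM and NFKB2 at 29.9 ± 5.74 RPKM. NFKB1 (16.9 ± 4.18 RPKM) overlapped with RELA (14.5 ± 0.138 RPKM), and RELB (11.2 ± 2.46 RPKM) with NFKBIE (11.0 ± 0.252 RPKM). BIRC3 had 6.59 ± 0.405 RPKM and REL 0.607 ± 0.0227 RPKM (SD, n = 2 each). In PRMT5 KD, NFKBIZ was highest at 119 ± 27.7 RPKM, with NFKBIA next at 72.1 ± 8.57 RPKM and no overlap between them. There, TNFAIP3 (43.4 ± 14.6 RPKM) overlapped with NFKB2 (42.4 ± 7.48 RPKM), RELA (16.2 ± 0.166 RPKM) with RELB (15.3 ± 3.99 RPKM), and BIRC3 (8.65 ± 2.96 RPKM) with NFKBIE (6.63 ± 0.523 RPKM). NFKB1 stood at 19.2 ± 1.14 RPKM and REL at 0.707 ± 0.0115 RPKM.

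This order depends in part on which length is used, since union exon lengths count exons that a cell may not use. By the canonical transcript, NFKB1 had 65.4 RPKM in control and ranked above TNFAIP3 at 61.5 RPKM and NFKB2 at 55.3 RPKM, and NFKBIA at 147 RPKM did not overlap with NFKBIZ at 96.6 RPKM. NFKBIZ and NFKBIA overlapped in PRMT5 KD by that length, at 178 and 157 RPKM. REL was lowest by all 3 lengths in both groups.

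A ratio of 2 members within 1 library does not depend on the scaling between libraries. RELA served as the reference because its replicates were closest. NFKBIE stood at 0.768 and 0.754 of the RELA level in control and at 0.388 and 0.428 in PRMT5 KD, a difference in mean log2 ratio of -0.90 with a larger group SD of 0.10. NFKBIZ stood at 4.67 and 4.20 times RELA in control and at 8.57 and 6.05 times in PRMT5 KD, a difference of 0.70 with a larger group SD of 0.36. Both pairs of groups were apart. The ratio of NFKB1 to NFKB2 was 0.585 and 0.540 in control and 0.420 and 0.496 in PRMT5 KD, also without overlap (difference -0.30, larger group SD 0.17). REL to RELA differed by 0.05, with no overlap and a larger group SD of 0.04. For NFKB1, NFKB2, RELB, NFKBIA, TNFAIP3 and BIRC3 relative to RELA, and for RELB relative to NFKB2, the groups overlapped. The RELB to NFKB2 ratio was nearly the same in the 4 libraries, from 0.335 to 0.382, although each gene varied between libraries. No test was run on the ratios. With 2 libraries against 2, groups without overlap can reach no smaller permutation p than 0.333, so a lack of overlap alone shows little. Another transcript length shifts a ratio in every library alike without moving its difference.

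**Figure D4:**
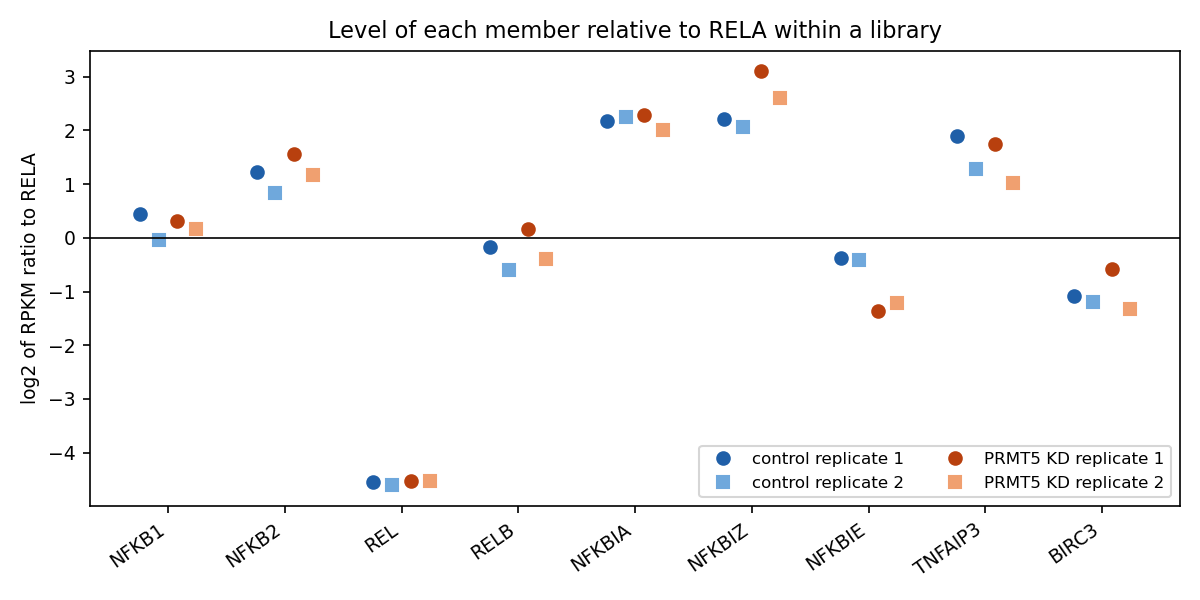
Log2 ratio of the RPKM of each member to that of RELA in the same library (control in blue, PRMT5 KD in orange, circles for replicate 1 and squares for replicate 2, line at equal level). NFKBIE lies lower and NFKBIZ higher in both PRMT5 KD libraries, REL lies near -4.5 in all 4, and the groups overlap for most other members.

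The other genes of the pathway were taken from 6 lists with 82 genes, of which 74 were tested. Among these, 22 were called higher (29.7%, against 21.2% of all genes tested) and 9 lower (12.2%, against 24.3%), and the median log2 fold change was 0.15. The counts of the single lists rest on fewer genes and have the same background shares. With control replicate 1 or control replicate 2 left out, the share of pathway genes called higher was close to or below that of all genes. The share called lower stayed below that of all genes whichever library was left out. The other 3 IkB family genes were all called. NFKBIB, the gene of IkBβ, had 17.1 and 13.2 CPM in control and 27.9 and 22.3 CPM in PRMT5 KD (0.73, FDR = 0.0169). NFKBID, a nuclear IkB gene with few counts, was called higher as well (0.68, FDR = 0.0361), but not with the replicate block (FDR = 0.0751), nor without control replicate 1 (FDR = 0.122), control replicate 2 (FDR = 0.215) or PRMT5 KD replicate 2 (FDR = 0.0939). BCL3, the gene of a nuclear IkB that binds p50 and p52 dimers, went from 15.7 and 19.0 CPM to 10.5 and 9.38 CPM and was called lower (-0.80, FDR = 0.00697). Without control replicate 2, neither NFKBIB (0.56, FDR = 0.129) nor BCL3 (-0.66, FDR = 0.0762) was called. With NFKBIZ and NFKBIE, 3 IkB family genes were called higher and 2 lower, where 21.2% and 24.3% of all genes tested were. NFKBIA was not called, nor were NFKB1 and NFKB2, whose precursor products also act as inhibitors. The genes are few, and no test was run on this count.

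Of the 10 IKK and upstream kinase genes, 2 were called higher and 0 lower. CHUK, which encodes IKKα, had 45.4 and 46.1 CPM in control against 84.4 and 90.3 CPM in PRMT5 KD (0.93, SE 0.11, FDR = 9.84e-04). IKBKG, which encodes the scaffold NEMO, had 32.7 and 29.2 CPM against 60.0 and 47.9 CPM (0.80, FDR = 0.00530), a call lost without control replicate 2 (FDR = 0.0665). IKBKB, the gene of the catalytic partner IKKβ, was at -0.44 (FDR = 0.0161), below the fold change threshold.

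Among receptors and adaptors, 20 of 21 genes were tested, 3 were called higher and 4 lower. The TNF receptor genes differed in sign: TNFRSF1A went from 334 and 402 CPM to 156 and 189 CPM (-1.09, FDR = 0.00208), while TNFRSF1B went from 5.22 and 6.93 CPM to 70.8 and 25.3 CPM (2.98, SE 0.56, FDR = 0.0121). CD40 was called higher (0.86, FDR = 0.00866), and LTBR, the lymphotoxin β receptor gene of the alternative branch, was called lower (-1.03, FDR = 0.00215). All calls of higher genes in this list were lost without control replicate 1, with TNFRSF1B at 2.80 and CD40 at 0.67. Without control replicate 2 only CD40, at 1.09, kept its call, and TNFRSF1B, at 3.21, lost it. With no filter on low counts TNFRSF1B was not called either (FDR = 0.0576). Among the 13 ubiquitin ligase and deubiquitinase genes, 3 were called higher and 0 lower. They include TNIP1, whose product binds A20, at 374 and 352 CPM in control and 673 and 608 CPM in PRMT5 KD (0.82, FDR = 0.00321), a call lost without control replicate 2 (FDR = 0.0532). BIRC2, the paralog that neighbours BIRC3, was also called higher (0.70, FDR = 0.00287).

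Of 9 ligand genes, 4 were tested, 1 was called higher and 1 lower. TNF itself went from 38.1 and 30.6 CPM in control to 3.76 and 2.05 CPM in PRMT5 KD, a log2 fold change of -3.56 (SE 0.31, FDR = 6.72e-04). TNFSF13B, which encodes the B-cell factor BAFF, was called higher (2.17, FDR = 0.0362), a call lost when either control library was left out (FDR = 0.0802 without replicate 1 and FDR = 0.149 without replicate 2), and its value was 1.17 without PRMT5 KD replicate 2. The TNFSF13B call was also lost with filterByExpr (FDR = 0.0530), with no filter on low counts (FDR = 0.121) and with the replicate block and the length and GC correction together (FDR = 0.0848). Of 26 target genes outside the members, 24 were tested, with 11 called higher and 3 lower. CCL5 rose from 1.46 and 1.82 CPM to 95.7 and 52.9 CPM (5.49, FDR = 5.29e-04), and CSF3 from 51.0 and 60.3 CPM to 1320 and 446 CPM (3.99, FDR = 0.00613). The adhesion gene VCAM1 (-2.86, FDR = 7.08e-04) and the macrophage growth factor gene CSF1 (-2.63, FDR = 3.63e-04) were called lower.

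All 11 target genes called higher were higher in PRMT5 KD replicate 1 than in PRMT5 KD replicate 2, with a median log2 gap of 1.38. Over all genes tested, 49.9% were, with a median gap of -0.00. The count of 11 was 7 with no filter on low counts, where the share of all genes called higher fell from 21.2% to 17.5%. Without control replicate 1 or control replicate 2 fewer target genes were called higher, and fewer of all genes were too. PRMT5 KD replicate 1 is also the library with the largest rRNA share (26.2%). Without it the log2 fold changes were 5.03 for CCL5, 3.04 for CSF3, -2.64 for VCAM1 and -2.39 for CSF1. The members' own gaps in PRMT5 KD had a median of 0.30.

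**Figure D5:**
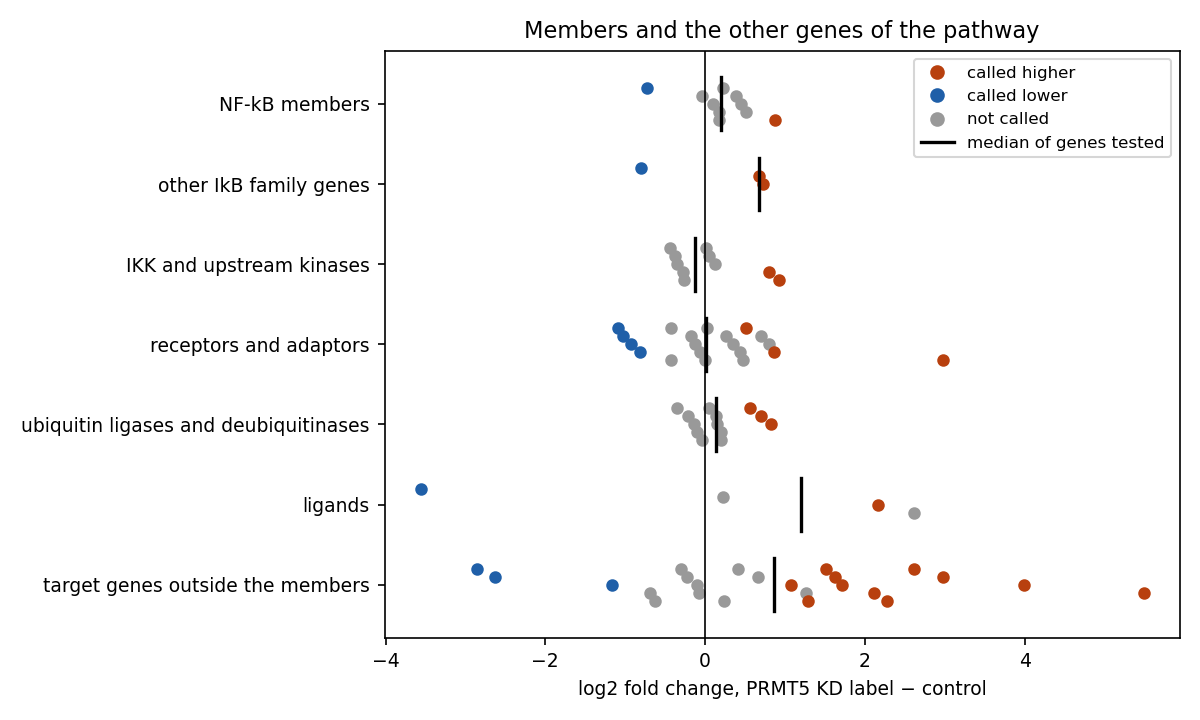
Log2 fold change (PRMT5 KD label minus control) of the 10 members and of the tested genes of 6 other pathway lists, one point per gene, coloured by call, with the median of each list as a black bar. The members lie between -0.73 and 0.88, and the target genes outside the members reach from -2.86 to 5.49.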

How the data were processed

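RNA was measured in 2 control and 2 PRMT5 KD libraries made with a directional kit. The authors deposited estimated counts per gene, 1 table per library, not normalized; between 86% and 86.8% of the values are whole numbers. The submitters' processing notes name FastQC, Trim Galore, STAR, Salmon, DESeq2 and GRCh38, without versions, whereas the paper's methods name FeatureCounts, so the counting program is not settled here. How ambiguous reads were divided between genes can move the counts of overlapping genes.

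Each table has 29744 entries. Entries with the same name were summed, and 28 entries whose names a spreadsheet had turned into dates were left out. Names were matched to GENCODE release 44 by symbol, RefSeq number or synonym, which gave 18961 protein-coding names. Counts were rounded, and genes with at least 0.5 RPKM in every library of at least 1 group were tested (edgeR 4.0.16, R 4.3.3, TMM, robust quasi-likelihood, no replicate block). Standard errors are the fold change over the root of F. Alternatives were DESeq2 1.42.0, other scalings, filters and dispersion, all gene names, the replicate block, each library left out, and a spline correction (4 degrees of freedom) for GC content and exon length. In a fit with 1 library left out, the lone library of its group is assumed to vary like the other group, so calls in such fits are weak. The edgeR procedure was tested on simulated data. Promoter windows are from RefSeq (GRCh38.p14). Figures were drawn with matplotlib 3.10.9.

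The members, lists and alternatives were chosen with earlier results of these data known. Genes named were all members, PRMT5 and, from each pathway list, up to 2 called genes with the largest increase and 2 with the largest decrease, an average log2 CPM of at least 1 and groups that did not overlap, and every gene of a list of 3. IKBKB, NXPE3 and the markers named fall outside that rule or were picked after their values were seen.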

Additional observations from a re-analysis of the deposited data

How the results depend on the processing

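In the main fit 1 of the 10 members was called higher, where 21.2% of all genes were. The shares of all genes called higher under each alternative are in brackets here. The number of members was 2 with DESeq2 (22%), total counts without TMM (29.5%) or edgeR's filterByExpr (21.6%). It was also 2 with no filter on low counts (17.5%) or the replicate block (20.2%). It was 4 with the length and GC correction (24%) and 5 with the replicate block and that correction together (23.3%). The number also moved when 1 library was left out, as did the share over all genes. At a log2 fold change threshold of 1, 0 members were called in either direction, by construction of that threshold. The member called lower was otherwise kept. The gains were NFKB2 with DESeq2 (0.51), total counts (0.68), filterByExpr (0.57), no filter (0.56), the replicate block (0.51), the length and GC correction (0.72) and both together (0.73), NFKB1 with the correction (0.53) and both (0.55), REL with the correction (0.59) and both (0.59), and RELB with both (0.59). Without PRMT5 KD replicate 2, NFKB2 (0.68), RELB (0.69) and BIRC3 (0.71) were gained. TNFAIP3, near 0 and never called, changed sign with total counts (0.13), filterByExpr (0.02), no filter (0.02), the correction (0.04) and both (0.03). The cause was not tested. Leaving out 1 library gave -0.04 to 0.47 for NFKB1, 0.33 to 0.72 for NFKB2, 0.18 to 0.69 for RELB, 0.65 to 1.11 for NFKBIZ, -0.40 to 0.32 for TNFAIP3, 0.03 to 0.71 for BIRC3 and 0.57 to 0.78 for PRMT5. It gave 7 to 27 pathway genes called higher and 7 to 15 called lower, against 22 and 9. Of the 140 values of the 10 members over 14 alternatives, 115 kept their direction and their side of the threshold. The ratios to RELA moved with the transcript length used, but their differences between the groups cannot, since a length shifts a ratio in every library alike. The stricter letter pattern was found in 7 members against 8. Scaling by total counts made 61.5% of all calls higher, against 46.6%.

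Libraries with the same replicate number had deviations with a correlation of -0.101 over genes, and the labels do not say that the numbers pair them. The replicate block added NFKB2 to the members called and changed no other member's call. The crossed pairing, chosen after seeing the data, called 1 member higher and 1 lower.

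With 2 libraries in each group, replicate error is estimated from few values, and REL, with 423 to 586 counts per library, has the fewest counts of the members. Intervals on counts were not used, since PCR copies are not independent molecules.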
